A study of Arabidopsis thaliana with 22 samples.

Results

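The salicylate-linked defence genes described here are *WRKY53* (AT4G23810), *CHI* (AT2G43570), AT5G03350, *SAG101* (AT5G14930) and *UGT76B1* (AT3G11340). They were taken by symbol or locus from the table that pairs array probe sets with genes. The 5 genes stand among 13286 genes with a named locus on the array, each has 1 probe set, and all 5 were among the 16349 probe sets tested of 22746. They were chosen by their DEX minus Mock values at 24 h in earlier results of these data, as genes with lower values under DEX in both lines. Their DEX minus Mock values at 24 h are therefore given as a description, with no test. The data go against that description for part of the set: *WRKY53*, *CHI* and AT5G03350 had a lower DEX mean in both lines, *UGT76B1* had one in GL3-GR alone, and *SAG101* had one in neither line.

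RNA came from green tissues of *Arabidopsis thaliana* seedlings and was hybridised to 22 Affymetrix ATH1 arrays, which measure transcripts with sets of short probes. One line was a *gl1* mutant with pGL1::GL1-GR, and the other was a *gl3 egl3* double mutant with pGL3::GL3-GR. In each, the promoter of the factor's own gene drives a fusion to the hormone-binding part of the glucocorticoid receptor, which responds to the steroid dexamethasone (DEX). Seedlings of both lines were moved to medium that held either DEX or its solvent ethanol (Mock) and were collected after 4 h or 24 h. When leaf epidermal cells become trichomes (leaf hairs), the MYB factor GL1 acts in a complex with the bHLH factor GL3. The 8 groups were GL1-GR DEX and GL1-GR Mock at 4 h, the same pair at 24 h, GL3-GR DEX and GL3-GR Mock at 4 h, all with 3 arrays each, and the GL3-GR pair at 24 h with 2 arrays each. The RNA of an array came from pooled seedlings and represents whole green tissue, so fewer cells of a type and less RNA per cell cannot be told apart. No plant of the series was labelled as infected or treated with salicylate.

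Salicylic acid (SA) is a plant hormone that accumulates in infected leaves and during leaf ageing. Its signal is fed by EDS1, to which SAG101 binds, and by PAD4, and it leads through NPR1 to the transcription of defence genes. Among the genes that SA induces are WRKY factors, which bind W-box DNA, and secreted or cytosolic proteins such as chitinases and lectin-like proteins. Glycosyltransferases of the UGT family attach sugars to small molecules and so take the active hormone out of use.

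Values are log2 expression values as deposited, and a difference of 1 is a factor of 2 on this scale. They differ in their lowest value and median between the 4 sets of arrays that make up each line at each time. The lowest value of an array was 2.099 to 2.101 in GL1-GR at 4 h, 1.97 in GL1-GR at 24 h, 2.25 to 2.26 in GL3-GR at 4 h and 2.05 in GL3-GR at 24 h, and array medians spanned 3.62 to 6.06. A DEX array is compared only with Mock arrays of its own set. Values of different sets also hold any difference in normalization, so the percentile of a gene among the probe sets of its own array is given beside its level. The root mean square residual SD of all tested probe sets was 0.213, 0.285, 0.548 and 0.188 in the sets in this order, which makes GL3-GR at 4 h the set with the widest spread. The green tissue label was checked with *RCA* and *PRK*, genes of photosynthetic carbon fixation, which had 10.6 to 13.7 and 10.2 to 12.5 on the 22 arrays. The root hair gene *EXPA7* was within 0.5 of the lowest value on 22 of 22 arrays. Of the marker genes listed, only 2 of 6 for green tissue and 1 of 9 for roots had a named probe set. The check rests on these.

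**Figure D1:**
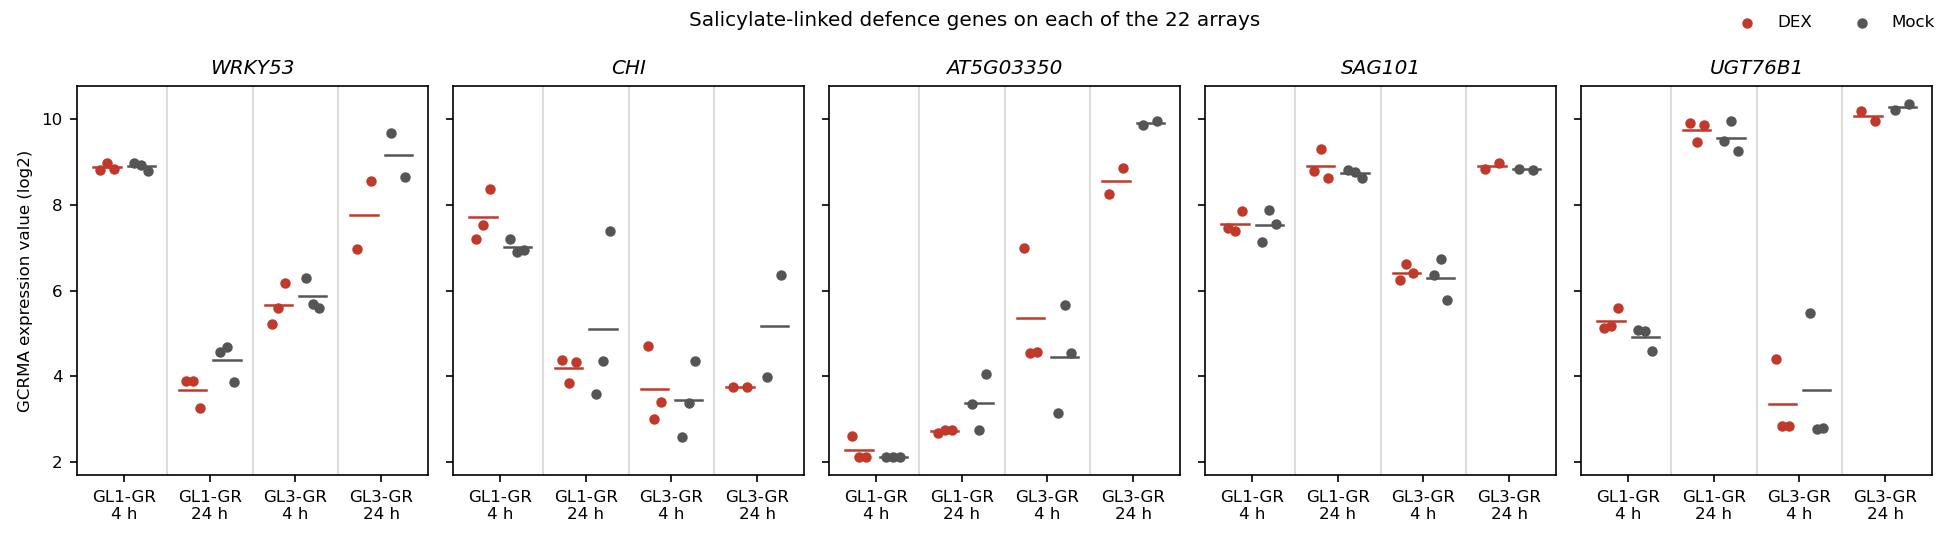
The plot of levels by array shows the log2 expression value of each gene (vertical axis) on the 22 arrays, by line and time, with DEX arrays in red to the left of Mock arrays in grey and a bar at each group mean. *WRKY53* and AT5G03350 span several log2 units between lines and times, and *SAG101* has the narrowest span of the 5 genes.

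*WRKY53* encodes a WRKY transcription factor that acts early in leaf senescence and in the defence response. Its highest group mean was 9.16 in GL3-GR Mock seedlings at 24 h and its lowest was 3.69 in GL1-GR DEX seedlings at 24 h. In GL1-GR at 4 h it had 8.81, 8.98 and 8.84 on the DEX arrays, against 8.97, 8.92 and 8.79 on the Mock arrays. These 6 values lie within 0.19 of each other, and the gene stood at percentiles 78.6 to 80.7 of its arrays. In GL1-GR at 24 h it had 3.89, 3.90 and 3.27 under DEX, against 4.58, 4.68 and 3.87 under Mock. Both groups were then near the middle of their arrays, at percentiles 45.2 to 50.8, and they overlapped because the lowest Mock array lay just below the higher DEX arrays. Taken by sample number, DEX minus Mock was -0.69, -0.78 and -0.59, although the numbers were not taken to pair the arrays.

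In GL3-GR at 4 h, *WRKY53* had 5.23, 5.61 and 6.18 in DEX seedlings, against 6.302, 5.688 and 5.598 in Mock seedlings, and the groups overlapped. At 24 h the values were 6.97 and 8.55 in DEX seedlings, against 9.69 and 8.64 in Mock seedlings. Both DEX arrays lay below both Mock arrays, although the higher DEX array and the lower Mock array were only 0.08 apart. The percentiles of *WRKY53* in GL3-GR were 65.9 to 80.4 at 4 h and 61.6 to 84.1 at 24 h, which overlap.

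The DEX mean of *WRKY53* at 24 h was below the Mock mean in both lines. In GL1-GR it was 3.69 ± 0.36 in DEX and 4.37 ± 0.44 in Mock seedlings (SD, n = 3 each), a difference of -0.69. In GL3-GR it was 7.76 ± 1.12 in DEX and 9.16 ± 0.74 in Mock seedlings (SD, n = 2 each), a difference of -1.40. Without DEX sample 1 the GL3-GR difference was -0.61, and leaving out any 1 array gave -2.19 to -0.61. In GL1-GR the same procedure gave -0.94 to -0.48.

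*CHI* encodes a chitinase, an enzyme class that cuts the chitin of fungal walls, and is among the genes that SA induces. Its level was highest in GL1-GR at 4 h, with 7.20, 7.54 and 8.38 in DEX seedlings, against 7.20, 6.90 and 6.95 in Mock seedlings. All DEX arrays were above all Mock arrays there, by less than 0.001 between the nearest pair. In GL1-GR at 24 h it had 4.39, 3.85 and 4.34 in DEX seedlings, against 3.59, 4.36 and 7.38 in Mock seedlings. A single Mock array, sample 3, stood far above the other arrays of that set, and 1 of the other Mock arrays had the lowest value of the 6.

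In GL3-GR, *CHI* had 4.70, 3.01 and 3.40 in DEX seedlings at 4 h, against 2.58, 3.37 and 4.37 in Mock seedlings. The lowest of these, on the array of Mock sample 1, lay within 0.5 of the lowest value of its array. At 24 h it had 3.74 and 3.74 in DEX seedlings, against 3.99 and 6.36 in Mock seedlings, so again 1 Mock array was far above the rest. The nearest DEX and Mock arrays were 0.24 apart.

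The differences of *CHI* at 24 h rested on those Mock arrays. In GL1-GR the means were 4.19 ± 0.30 in DEX and 5.11 ± 2.00 in Mock seedlings (SD, n = 3 each), a difference of -0.91, and without Mock sample 3 the difference was 0.22. In GL3-GR the means were 3.74 in DEX and 5.17 ± 1.68 in Mock seedlings (SD, n = 2 each), a difference of -1.43, and without Mock sample 2 the difference was -0.24. Mock sample 3 of GL1-GR at 24 h also had the highest AT5G03350 and the lowest *WRKY53* of the Mock arrays in its set. Its mean correlation with the other arrays of the set was 0.993, against 0.995 to 0.996 for each of those arrays. The part of this array's overall deviation in the *CHI* value was not tested.

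AT5G03350 encodes a legume lectin-like protein that SA induces. It covered the widest span of the 5 genes, with group means of 2.12 in GL1-GR Mock seedlings at 4 h and 9.91 in GL3-GR Mock seedlings at 24 h. In GL1-GR at 4 h it had 2.60, 2.11 and 2.11 in DEX seedlings, against 2.12, 2.11 and 2.11 in Mock seedlings. Of these 6 arrays, 5 were within 0.5 of the lowest value, where values have no order, and no array of the set passed the filter on low values. In GL1-GR at 24 h it had 2.68, 2.76 and 2.76 in DEX seedlings, against 3.35, 2.76 and 4.05 in Mock seedlings. The DEX values were close together, 0.71 to 0.79 above the lowest value of their arrays, and 1 Mock array lay among them. They stood at percentiles 42.3 to 42.8, just above the filter on low values at the 40th percentile.

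In GL3-GR the lectin-like gene was well above the lowest values. At 4 h it had 6.98, 4.55 and 4.58 in DEX seedlings, against 3.14, 5.66 and 4.55 in Mock seedlings, which overlapped widely. At 24 h it had 8.25 and 8.86 in DEX seedlings, against 9.87 and 9.96 in Mock seedlings. Of the 5 genes it had the widest gap between the groups there, with 1.01 between the higher DEX and the lower Mock array. The gene stood at percentiles 72.0 to 77.1 in DEX and 85.6 to 86.2 in Mock seedlings.

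At 24 h the AT5G03350 means in GL1-GR were 2.73 ± 0.05 in DEX and 3.39 ± 0.65 in Mock seedlings (SD, n = 3 each), a difference of -0.65. Without Mock sample 3 this difference was -0.32, and the DEX arrays in it were just above the filter on low values. In GL3-GR the means were 8.56 ± 0.43 in DEX and 9.91 ± 0.06 in Mock seedlings (SD, n = 2 each), a difference of -1.36 that spanned -1.66 to -1.05 when 1 array was left out.

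*SAG101* encodes a lipase-like protein that binds EDS1 in the immune response to pathogens and is expressed in senescing leaves. It had 5.79 or more on every array, with group means of 6.30 to 8.91. In GL1-GR at 4 h it had 7.45, 7.38 and 7.86 in DEX seedlings, against 7.13, 7.89 and 7.55 in Mock seedlings. At 24 h it had 8.78, 9.30 and 8.64 in DEX seedlings, against 8.81, 8.76 and 8.63 in Mock seedlings. The groups overlapped at both times.

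In GL3-GR, *SAG101* had 6.25, 6.61 and 6.40 in DEX seedlings at 4 h, against 6.36, 6.74 and 5.79 in Mock seedlings. At 24 h it had 8.85 and 8.97 in DEX seedlings, against 8.84 and 8.82 in Mock seedlings, which left the groups apart by under 0.01. At 24 h the DEX minus Mock difference had the opposite sign from that of *WRKY53* in both lines, at 0.17 for the GL1-GR seedlings and 0.07 for the GL3-GR seedlings. Without DEX sample 2 the GL1-GR value was -0.028, and without DEX sample 2 of its own set the GL3-GR value was 0.013.

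*UGT76B1* encodes a glucosyltransferase that conjugates isoleucic acid and SA and restrains SA-dependent defence. Its main contrast was between times, with group means of 3.36 to 5.29 at 4 h and 9.56 to 10.3 at 24 h. In GL1-GR it had 5.12, 5.16 and 5.59 in DEX seedlings at 4 h, against 5.08, 5.07 and 4.60 in Mock seedlings. All DEX arrays lay above all Mock arrays. At 24 h it had 9.91, 9.46 and 9.85 in DEX seedlings, against 9.48, 9.95 and 9.25 in Mock seedlings, and the groups overlapped.

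In GL3-GR at 4 h, *UGT76B1* had 4.40, 2.84 and 2.84 in DEX seedlings, against 5.48, 2.78 and 2.80 in Mock seedlings. The first sample of both treatments was high and the other 4 arrays were below the filter on low values. At 24 h it had 10.2 and 9.95 in DEX seedlings, against 10.2 and 10.4 in Mock seedlings. Both DEX arrays lay below both Mock arrays by a margin of 0.03. The lines had opposite signs at 24 h, with a difference of 0.18 for GL1-GR seedlings and -0.22 for GL3-GR seedlings. Leaving out 1 array gave 0.028 to 0.38 for GL1-GR and -0.33 to -0.11 for GL3-GR. A test of that contrast between the lines was not made, since the rule used it.

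**Figure D2:**
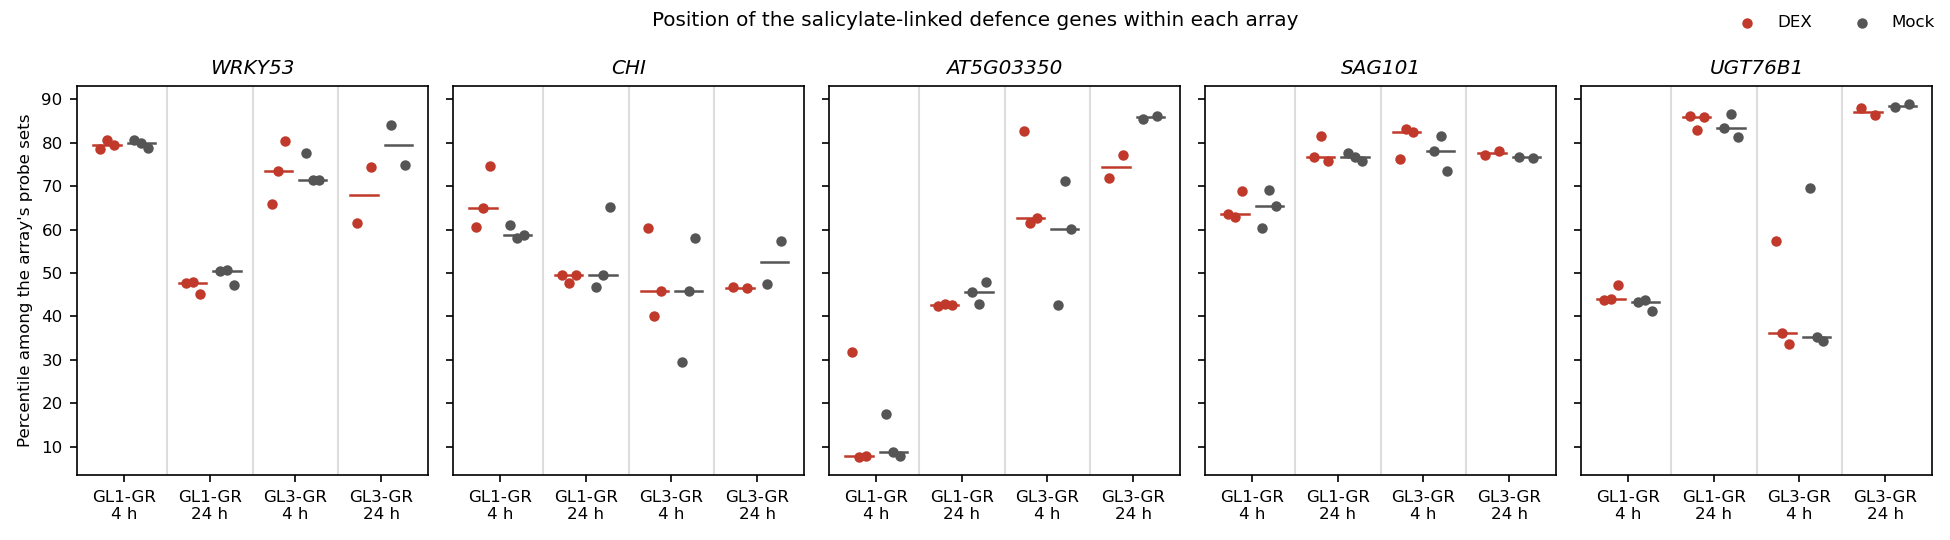
The plot of positions shows the percentile of each gene among all probe sets of the same array (vertical axis), by line and time, with DEX arrays in red to the left of Mock arrays in grey and a bar at each group median. *UGT76B1* stands at 81.3 or above on all arrays of 24 h, and *WRKY53* is at 45.2 to 50.8 in GL1-GR at 24 h.

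On the percentile scale the genes ordered the sets differently. *WRKY53* was placed lowest in GL1-GR at 24 h, and *UGT76B1* was placed high at 24 h in both lines. *SAG101* was placed lowest in GL1-GR at 4 h, at percentiles 60.3 to 69.0, and at 73.5 to 83.1 in the other 3 sets. AT5G03350 stood at 7.53 to 31.8 in GL1-GR at 4 h and at 72.0 to 86.2 in GL3-GR at 24 h.

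The order of the 8 group means on the log2 scale differed from gene to gene, and it also holds any difference in normalization between sets. For *WRKY53* the 2 GL1-GR groups of 4 h (8.88 under DEX and 8.89 under Mock) came just below GL3-GR Mock at 24 h, with ranges that overlapped from one to the next. They were followed, without overlap, by GL3-GR DEX at 24 h (7.76), then by both GL3-GR groups of 4 h (5.67 and 5.86) and both GL1-GR groups of 24 h. For *CHI* the GL1-GR groups of 4 h came first (7.71 under DEX and 7.02 under Mock), and the ranges of the other 6 groups, with means of 3.44 to 5.17, overlapped with their neighbours except between GL1-GR DEX and GL3-GR DEX at 24 h. For AT5G03350 the order was by set, with both GL3-GR sets above both GL1-GR sets. For *SAG101* and *UGT76B1* the 4 groups of 24 h were above all 4 groups of 4 h. On the percentile scale *SAG101* did not keep this order. Its group medians were 82.5 (DEX) and 78.2 (Mock) in GL3-GR at 4 h, against 76.7 to 77.6 in the groups of 24 h. *WRKY53* had medians of 73.6 (DEX) and 71.5 (Mock) in GL3-GR at 4 h, above the 68.0 of GL3-GR DEX at 24 h.

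At 24 h, 3 of the 5 genes had a DEX mean below the Mock mean in both lines, against 36.3% of the tested probe sets. Without Mock sample 3 of GL1-GR the count was 2 of 5, and with any other 1 array of 24 h left out it was 3 of 5. In GL1-GR at 24 h, 0 of the 5 genes had every DEX array below every Mock array, a pattern that 3.09% of the tested probe sets showed, and 0 had every DEX array above, as 2.75% did. In GL3-GR at 24 h, *WRKY53*, *CHI*, AT5G03350 and *UGT76B1* had it, as had 19.1% of the tested probe sets, and *SAG101* had every DEX array above every Mock array, as had 12.6%. The rule used these contrasts, so nothing is read from the counts. None of the 5 genes was separated in this way in both lines, and 0.838% of the tested probe sets were.

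**Figure D3:**
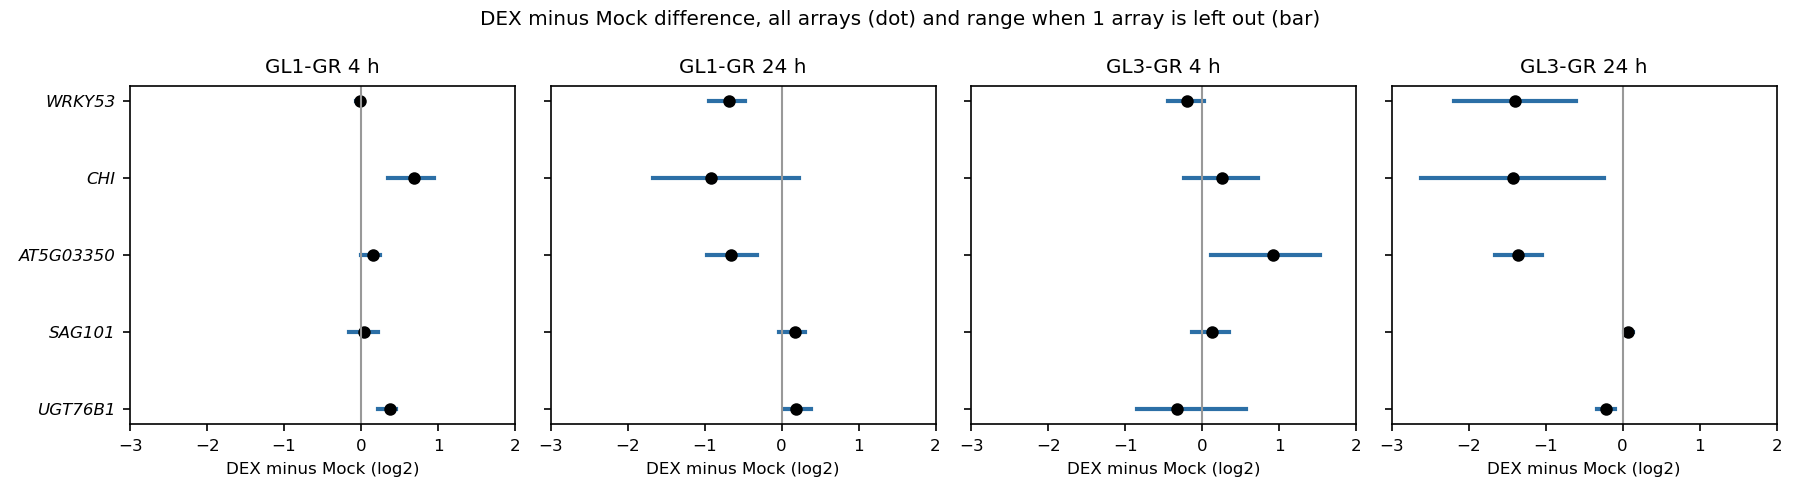
The plot of differences shows the DEX minus Mock difference on the log2 scale (horizontal axis) for each gene in each line and time, with a dot for all arrays and a bar for the range when 1 array is left out. At 24 h the bar of *CHI* in GL1-GR reaches 0.22, and that of *WRKY53* in GL3-GR spans -2.19 to -0.61.

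The arrays of 4 h were not used by the rule, and DEX was tested against Mock there with limma on the arrays of each line alone. No gene of the 5 passed the adjusted p threshold of 0.05 in either line, where 0.00612% (GL1-GR) and 0% (GL3-GR) of the tested probe sets did. Of the 5 genes, 0 had an unadjusted limma p under 0.05 in either line, where 7.29% (GL1-GR) and 3.41% (GL3-GR) of the tested probe sets did. At an unadjusted p under 0.01 the count was also 0, where 1.73% (GL1-GR) and 0.526% (GL3-GR) of the tested probe sets did. *CHI* had the largest difference of the 5 in GL1-GR, with 7.71 ± 0.61 in DEX and 7.02 ± 0.16 in Mock seedlings (SD, n = 3 each), a difference of 0.69 (SE 0.33, limma adjusted p = 0.714, 95% interval -0.15 to 1.53). *UGT76B1* came next with 0.38 (SE 0.20, limma adjusted p = 0.719, 95% interval -0.13 to 0.88). These were the 2 genes whose DEX arrays were all above the Mock arrays, as were those of 8.19% of the tested probe sets, and in 0 of the 5 were they all below, as in 4.46%.

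The remaining values in GL1-GR at 4 h were small. *WRKY53* differed by -0.02 (SE 0.07, limma adjusted p = 0.987), and its 95% interval of -0.20 to 0.17 was the narrowest of the 5. *SAG101* differed by 0.04 (SE 0.24, limma adjusted p = 0.998), with an interval of -0.58 to 0.66. The AT5G03350 difference of 0.16 (SE 0.15, 95% interval -0.22 to 0.54) came from 1 array above the lowest values.

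In GL3-GR at 4 h the 95% intervals were wide, and 0 of the 5 genes had separate groups, with every DEX array below in 5.26% and above in 2.7% of the tested probe sets. The *WRKY53* difference was -0.19 (SE 0.32, limma adjusted p = 0.966, interval -0.99 to 0.61), and the *CHI* difference was 0.26 (SE 0.63, limma adjusted p = 0.979, interval -1.31 to 1.83). AT5G03350 had the largest difference, 0.92 (SE 0.93, limma adjusted p = 0.960, interval -1.41 to 3.25), which was 0.11 without DEX sample 1. *SAG101* differed by 0.13 (SE 0.28, limma adjusted p = 0.977, interval -0.56 to 0.81). *UGT76B1* differed by -0.32 (SE 0.89, limma adjusted p = 0.987, interval -2.55 to 1.90), and by 0.57 without Mock sample 1. The intervals of all 5 genes held differences on both sides of 0, so these data do not show that the genes were unresponsive at 4 h.

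The responses of the lines at 4 h were set against each other on the 12 arrays of that time. The GL3-GR response minus the GL1-GR response was -0.17 for *WRKY53* (SE 0.35, limma adjusted p = 0.973) and -0.42 for *CHI* (SE 0.72, limma adjusted p = 0.966). It was 0.76 for AT5G03350 (SE 0.97, limma adjusted p = 0.951), 0.09 for *SAG101* (SE 0.38, limma adjusted p = 0.989) and -0.70 for *UGT76B1* (SE 0.93, limma adjusted p = 0.952). None passed the threshold, which 0.00612% of the tested probe sets passed. The 95% intervals reached from -2.77 to 1.37 for *UGT76B1* and from -0.94 to 0.59 for *WRKY53*.

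**Figure D4:**
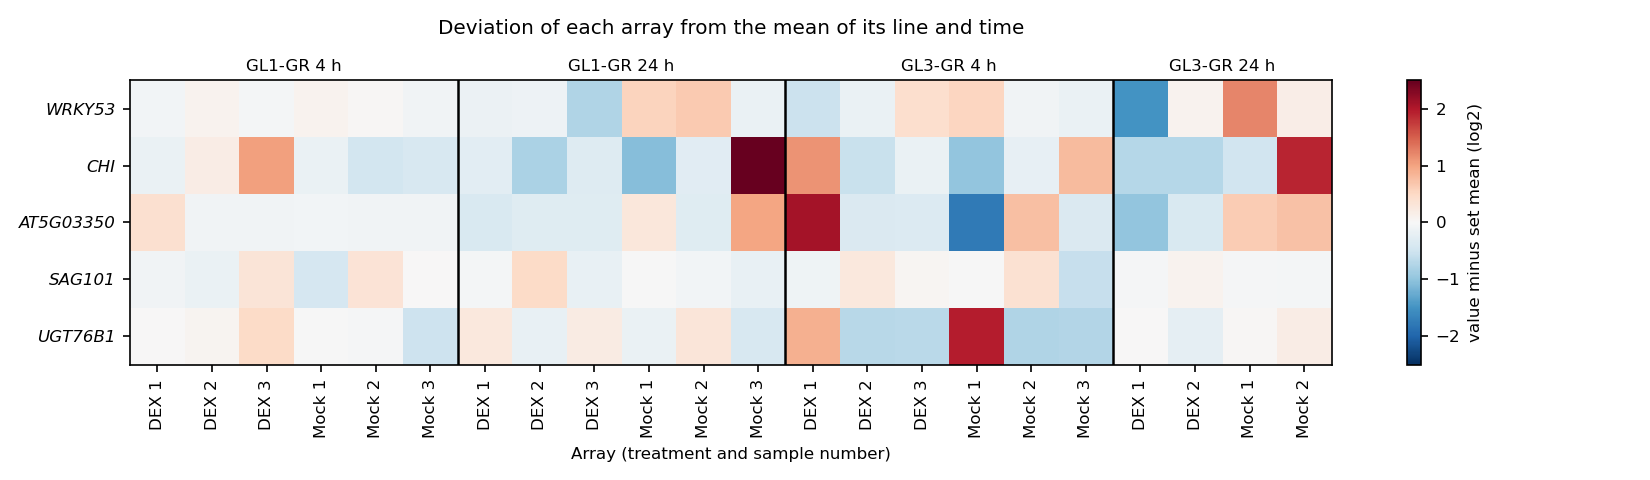
The plot of deviations shows, for each gene and array, the log2 value minus the mean of its line and time, with red above and blue below that mean and DEX arrays to the left of Mock arrays in each set. *CHI* stands out on Mock sample 3 of GL1-GR and Mock sample 2 of GL3-GR at 24 h, and AT5G03350 is high on DEX sample 1 and low on Mock sample 1 of GL3-GR at 4 h.

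How far the 5 genes moved together was described from the deviation of each array from the mean of its line and time, over the 12 arrays of 4 h, which the rule did not use. *CHI* and AT5G03350, both SA-induced effector genes, had a Pearson correlation of 0.60. *WRKY53* correlated at -0.81 with AT5G03350 and at -0.62 with *CHI*. AT5G03350 was near the lowest value in GL1-GR at 4 h, so its correlations rest mainly on the GL3-GR arrays. Within the sets, *WRKY53* and *CHI* had a Pearson r of -0.04 in GL1-GR and -0.76 in GL3-GR, with Spearman rho of 0.20 and -0.77. Over the 12 arrays of 4 h together, the pairs of the 5 genes not named above had Pearson correlations between -0.27 and 0.25.

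Within the sets of 4 h, 16 pairs of these genes were related over 6 arrays each, with AT5G03350 left out in GL1-GR, where it was near the lowest value. In GL3-GR the strongest relation was between *WRKY53* and AT5G03350, with a Pearson r of -0.82 (exact permutation p = 0.0417, adjusted p = 0.367) and a Spearman rho of -0.49 (exact permutation p = 0.356, adjusted p = 0.803). Its r was -0.78 without the 2 arrays farthest from the *WRKY53* median. In GL1-GR it was between *CHI* and *UGT76B1*, with a Pearson r of 0.84 (exact permutation p = 0.0542, adjusted p = 0.367) and a Spearman rho of 0.94 (exact permutation p = 0.0167, adjusted p = 0.267). Its r was 0.52 without the 2 arrays farthest from the *CHI* median. For both genes all DEX arrays were above all Mock arrays in this set, so the relation also holds the treatment difference. No relation of the 16 passed the adjustment.

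The named genes most like each of the 5 across the 22 arrays were found with the same deviations. The 24 h arrays in this measure hold the differences by which the 5 genes were chosen, so the correlations are a description. *UGT76B1* had the closest neighbours, AT3G52800 and AT5G13200 with a Pearson correlation of 0.94 each, and AT3G50910 with 0.93, which were 0.97, 0.97 and 0.95 over the arrays of 4 h. Their Spearman correlations over 22 arrays were lower, at 0.68, 0.76 and 0.81. The high first samples of GL3-GR at 4 h take part in these values. *WRKY53* was followed by AT5G44390 with 0.86, by AT1G54926 with 0.85, whose probe set can detect several related transcripts, and by AT1G32690 with 0.73.

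The nearest genes to AT5G03350 were AT5G55450 with 0.84, a gene of the lipid transfer protein family, AT2G20930 with 0.82 and AT5G66800 with 0.80. *CHI* was followed by AT1G55210 with 0.80, a dirigent-like protein gene, by *PRL* with 0.79, which encodes an MCM7 subunit of the DNA replication helicase, and by *UBP22* with 0.78, which encodes a ubiquitin protease. *SAG101* had the weakest neighbours, *GAMMA-VPE*, AT4G14480 and AT4G17830, with 0.71 each. *GAMMA-VPE* encodes a vacuolar processing enzyme. Spearman correlations over 22 arrays were lower here too. They were 0.56 to 0.75 for the neighbours of AT5G03350, 0.58 to 0.73 for those of *CHI* and 0.53 to 0.56 for those of *SAG101*. The outlying Mock arrays of 24 h take part in the *CHI* values. Up to 13 probe sets with no single named gene, or of other members, ranked above the named neighbours of *CHI*.

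Other genes of the SA pathway and of the families of the 5 genes were described from lists of 106 genes, of which 36 had a named probe set and 25 were tested. Of the 25, 0 passed the limma threshold in each of the 4 comparisons of DEX with Mock, beside 0.00612% of the tested probe sets in both GL1-GR comparisons and 0% in both GL3-GR comparisons. At an unadjusted p under 0.05 the limma counts were 5 and 0 of 25 for GL1-GR at 4 h and 24 h, and 2 and 2 of 25 for GL3-GR. The 5 had differences of both signs, such as 0.45 for *SARD4* and -0.49 for *UGT76F2*. The shares of all tested probe sets were 7.29% and 2.21% for GL1-GR at 4 h and 24 h, and 3.41% and 5.95% for GL3-GR. At 24 h the median difference of the 25 genes was -0.11 in GL1-GR, with 19 of 25 below 0, and -0.01 in GL3-GR, with 18 of 25 below 0. Of all tested probe sets, 52.4% (GL1-GR) and 59.9% (GL3-GR) were below 0. The medians over all tested probe sets were 0.00 in both sets to 2 decimals. Of the 25 genes, 14 had a DEX mean below the Mock mean in both lines at 24 h, which is 56% beside the 36.3% of all tested probe sets. Part of these signs belong to genes near the lowest value, where values have no order. With genes near it on most arrays of a line at 24 h left out, a choice made after the values were seen, 7 of 15 list genes were below 0 in both lines (46.7%), beside 28.9% of all tested probe sets. Of the 12 genes of SA perception, 0 had a named probe set, so that step of the pathway was not analysed here.

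*SARD4*, an enzyme gene for pipecolic acid that is linked to systemic immunity, was the 1 tested gene of 13 listed for SA synthesis and its regulators. It had the smallest unadjusted p of the 25 genes at 4 h in both lines. In GL1-GR at 4 h it had 6.56, 6.70 and 6.55 in DEX seedlings, against 6.26, 5.97 and 6.23 in Mock seedlings, a difference of 0.45 with an unadjusted p of 0.00584 by limma, or 0.559 after adjustment. In GL3-GR at 4 h it had 4.42, 3.87 and 4.02 in DEX seedlings, against 2.82, 3.31 and 3.40 in Mock seedlings, a difference of 0.92. Its unadjusted p by limma was 0.00944, or 0.960 after adjustment. DEX arrays were above Mock arrays in both lines at 4 h, and neither value passed the adjustment over all probe sets. *UGT76E11*, of the UGT76 list, also had every DEX array above every Mock array at 4 h in both lines. Its differences were 0.28 in GL1-GR and 1.01 in GL3-GR (limma adjusted p = 0.607 and 0.960). At 24 h *SARD4* differed by -0.23 in GL1-GR and -0.36 in GL3-GR (limma adjusted p = 0.999 and 0.845).

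*GRX480*, a glutaredoxin gene that SA induces, was the 1 tested gene of 15 in the SA-induced list. It had every DEX array of 24 h below every Mock array in both lines, by under 0.01 in GL1-GR. In GL1-GR at 24 h it had 4.40, 4.11 and 4.40 in DEX seedlings, against 4.41, 4.76 and 4.40 in Mock seedlings. In GL3-GR at 24 h it had 7.50 and 8.16 in DEX seedlings, against 8.65 and 8.71 in Mock seedlings. The differences were -0.22 and -0.85 in the 2 lines (limma adjusted p = 0.999 and 0.845). *PDF1.2*, a defensin gene of the jasmonate pathway, differed by 1.14 in GL3-GR at 24 h, with 5.57 and 4.79 in DEX and 3.63 and 4.46 in Mock seedlings (limma adjusted p = 0.845).

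The other chitinase genes were the largest family with tested members beside the UGT76 genes. At 24 h, 7 of 7 tested chitinases were below 0 in GL1-GR, with a median of -0.19, and 5 of 7 in GL3-GR, with a median of -0.21, and none passed the threshold. Off the lowest values, as defined above, the counts were 6 of 6 in GL1-GR and 3 of 5 in GL3-GR, beside 45.9% and 55.3% of all tested probe sets. The locus neighbour of *CHI*, AT2G43590, had 9.97 and 9.54 in DEX seedlings of GL3-GR at 24 h, against 8.97 and 8.68 in Mock seedlings, a difference of 0.93 (limma adjusted p = 0.774). This chitinase thus stood on the other side of 0 from *CHI* in that set, and at -0.26 in GL1-GR. AT4G01700 had -0.37 in GL1-GR and -0.83 in GL3-GR at 24 h (limma adjusted p = 0.999 and 0.845). Of the 8 tested UGT76 genes, 6 were below 0 in GL1-GR and 5 in GL3-GR at 24 h, with medians of -0.06 and -0.00. Off the lowest values, 4 of 4 were below 0 in GL1-GR and 1 of 4 in GL3-GR.

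The senescence and lectin lists were short. Of the 3 tested senescence genes, *WRKY22*, a WRKY factor gene of the immune response, differed by 0.52 in GL1-GR and 0.17 in GL3-GR at 24 h, and *WRKY6* differed by 0.12 and -0.07. None passed the threshold, and both WRKY genes had differences unlike the -0.69 and -1.40 of *WRKY53*. Of the 2 tested legume lectin-like genes, AT3G16530 differed by -0.27 in GL1-GR and -0.05 in GL3-GR. Of the 2 tested SA turnover genes, *UGT71C3* differed by -0.53 and *GH3.5* by 0.53 in GL1-GR at 24 h.

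**Figure D5:**
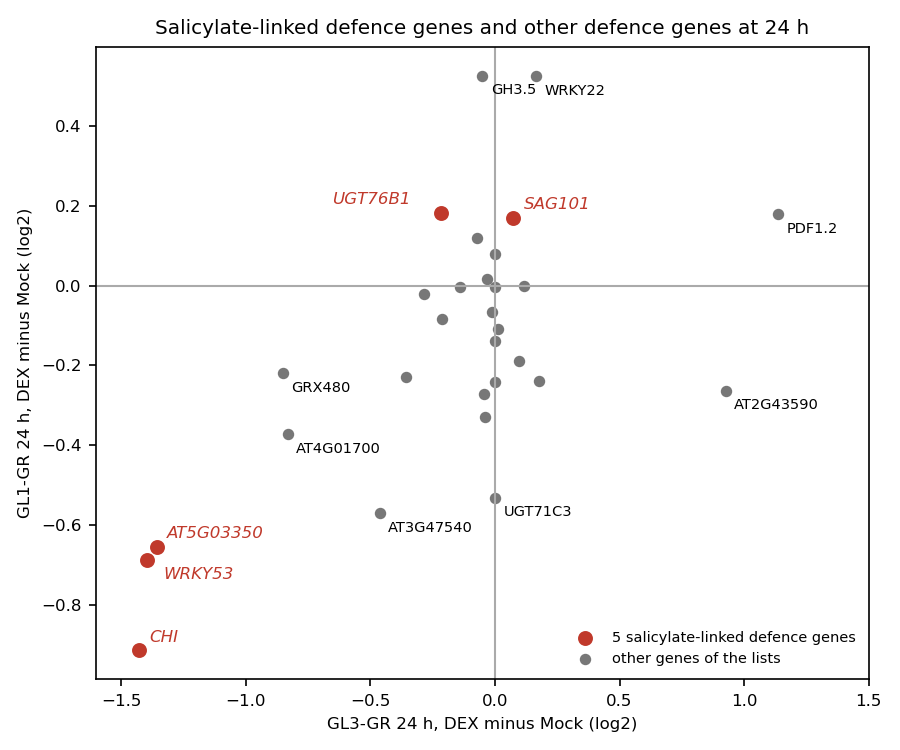
The plot of both lines at 24 h sets the DEX minus Mock difference (log2) in GL3-GR (horizontal axis) against that in GL1-GR (vertical axis), with the 5 genes in red and the 25 tested genes of the lists in grey. *WRKY53*, *CHI* and AT5G03350 are at the lower left, with -1.36 to -1.43 in GL3-GR, and *PDF1.2* and AT2G43590 are to the right.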

How the data were processed

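Total RNA was amplified and biotin-labelled before hybridisation, per the labels. The authors ran GCRMA through affylmGUI in R, and the deposited values are on the log2 scale. The version of GCRMA, the annotation and the number of normalization runs are not given in the sources used here. GCRMA corrects background by probe sequence and leaves undetected probe sets near a floor. Samples are numbered in the labels with no word on separate cultures, although the study's methods speak of independent biological material, so p-values measure the spread between these samples, which may be partly technical.

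The 64 control probe sets were left out of 22810. GEO's platform table gave 1 gene symbol for 13513 of the other 22746, several for 503 and none for 8730. Loci were matched to RefSeq's gene table. Probe sets above the 40th percentile of their array on at least 2 arrays were tested (16349). With R 4.3.3 and limma 3.58.1, DEX was compared with Mock on the arrays of each line and time alone, and the 4 h responses of the lines on 12 arrays, with Benjamini-Hochberg adjustment over all tested probe sets. The procedure was tested on simulated data. The number of arrays limits the precision.

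Named genes were the 5 members, in each list the genes past the threshold or among the 4 of largest difference in a comparison, family neighbours of the members, and the 3 named genes most like each member. The members and lists were chosen with earlier results of these data known. The promoter sequences planned for a motif search were not used here.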

Additional observations from a re-analysis of the deposited data

How the results depend on the processing

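Over 330 values of the 5 genes under other settings, 29 changed sign. The other 301 kept their sign and their side of the threshold or stayed within 1 SD. Part of the 301 was fixed in advance. The joint fit of all arrays, no filter, a replicate block by sample number and the methods' t-test leave the difference itself unchanged. For *WRKY53* in GL1-GR at 24 h it was -0.69 under each. At 24 h, where these genes were not tested, such settings could change nothing, and at 4 h only the p-value. The 301 is thus not read as a measure of robustness. With array weights, the 4 h difference became 0.044 (*WRKY53*) and -0.13 (*SAG101*) in GL1-GR, and -0.43 (*CHI*) and -0.24 (AT5G03350) in GL3-GR, and the difference between the lines became -0.53 for AT5G03350. With quantile normalization over all arrays the line difference of *WRKY53* became 0.00090. Leaving out 1 array gave, in GL1-GR at 4 h, -0.067 to 0.020 (*WRKY53*), -0.0031 to 0.24 (AT5G03350) and -0.16 to 0.22 (*SAG101*). In GL1-GR at 24 h it gave -1.67 to 0.22 (*CHI*) and -0.028 to 0.30 (*SAG101*). In GL3-GR at 4 h it gave -0.45 to 0.030 (*WRKY53*), -0.23 to 0.73 (*CHI*), -0.13 to 0.35 (*SAG101*) and -0.85 to 0.57 (*UGT76B1*). For the difference between the lines it gave -0.43 to 0.046 (*WRKY53*), -0.92 to 0.039 (*CHI*), -0.047 to 1.37 (AT5G03350), -0.17 to 0.31 (*SAG101*) and -1.22 to 0.20 (*UGT76B1*). The causes were not tested.

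The number of probe sets called was 1 for GL1-GR at 4 h. It was 4 with all 22 arrays in 1 fit, 0 with quantile normalization, 0 with the methods' t-test and 0 to 1 with 1 array left out. For GL1-GR at 24 h the count was 1. It was 0 with all 22 arrays in 1 fit, with quantile normalization and with median centring, and 0 to 0 with 1 array left out. For GL3-GR at 4 h the count was 0, and 146 with all 22 arrays in 1 fit. For the difference between the lines the count was 1. It was 775 with array weights and 0 to 135 with 1 array left out, with 135 without DEX sample 1 and 33 without Mock sample 1 of GL3-GR at 4 h. None of the 5 genes passed the threshold at 4 h under any setting run.

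Same-numbered arrays of DEX and Mock deviated together at correlations of -0.14 to 0.35, not all above 0.1, so the sample numbers were not taken to pair the arrays. The -0.14 is from GL3-GR at 24 h, where 2 arrays per group make same-number and crossed values exact opposites. In the other sets the correlations were 0.018 to 0.35. They were not always above those with other numbers. In GL1-GR at 24 h sample 3 had 0.35, against -0.16 as the highest with another number, and sample 1 had 0.058, against 0.38. With the sample number as a replicate block the counts were 0 for GL1-GR at 4 h, 0 for GL1-GR at 24 h and 0 for the difference between the lines. With the numbers of GL3-GR at 24 h crossed, a setting chosen after seeing the data, the count was 0.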
